A study of Mus musculus with 14 samples.

Results

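The myosin heavy chain genes examined here were Myh3 (embryonic), Myh8 (perinatal, also called neonatal), Myh1, Myh2 and Myh4 (adult fast, of type IIx, IIa and IIb fibers), Myh13 (a fast form of extraocular muscle), Myh7 and Myh7b (slow) and Myh9 and Myh10 (nonmuscle). They were listed by gene symbol with earlier results of these data known, and every peak annotated to 1 of these 10 symbols was taken. The list does not hold every heavy chain gene: 4 others are counted below among the genes that work with these members. Of the 10 genes, 5 had a listed peak in at least 1 library. These 5 genes held 10 of the 10303 peaks, and 4385 genes in all had a listed peak. A member without a peak was counted as not bound, which means that no peak of that gene was listed and not that binding was absent.

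The question was where MyoD and MyoG, transcription factors of the muscle lineage, bound DNA in muscle stem cells (MuSCs) before and after injury. All mice had the genotype label wild-type and carried the mito-Dendra2 allele driven by Pax7-Cre(ERT2), so that cells expressing Pax7 during tamoxifen treatment, and their progeny, were labelled with a fluorescent mitochondrial protein. Tamoxifen was given at 75 mg/kg on 5 days, after which the tibialis anterior, a shin muscle, received 50 µL of 1.2% BaCl2 and the opposite muscle received saline. At 2 days post injury (dpi), quiescent MuSCs (QSCs) were sorted from saline-injected muscle as CD34+ and activated MuSCs (ASCs) from injured muscle as CD34-, each Dendra2+ and DAPI-. Chromatin was fixed in 1% formaldehyde, sheared to about 500 bp and precipitated with an antibody to MyoD or MyoG for sequencing (ChIP-seq). Each antibody was used on 3 libraries of QSCs and 3 of ASCs, giving 12 libraries in 4 groups. The 2 input libraries, which had no antibody, were not analysed here. The libraries of a group are described by the study as biological replicates, and p-values were computed with libraries as the units. They rest on the peaks listed in each library, so they cannot separate variation between animals from depth. Ages and the number of animals behind a library are not given in the sources used here.

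A myosin heavy chain is the motor subunit of the thick filament: its head binds actin and splits ATP, and its tail packs into the filament. Regenerating fibers pass through embryonic and perinatal heavy chains before the adult fast or slow forms appear. In mammals the embryonic, perinatal, adult fast and extraocular genes lie side by side in a single cluster, the slow genes lie elsewhere, and Myh9 and Myh10 encode heavy chains of nonmuscle myosin II, which works in the cell cortex and in division of most cell types. MyoD and MyoG are basic helix-loop-helix proteins that bind the E-box, a short motif written CANNTG, where N is any base.

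A peak is a stretch of the genome where a library holds more reads than its background. Its score is minus 10 times the log10 of the peak caller's p-value, and the lowest score listed was 50. ASC MyoD libraries held 2262 to 2652 peaks, ASC MyoG libraries 605 to 916, QSC MyoD libraries 139 to 174 and QSC MyoG libraries 120 to 167. The lists carry no read counts, so depth is unknown, and a difference in depth cannot be told apart from a difference in binding. Peak lists measure no expression, so the sorted cells could not be checked against expressed markers. As positions only, Myod1, which encodes MyoD, had 3, 4 and 3 peaks in the ASC MyoD libraries and 1 in an ASC MyoG library, Myog, which encodes MyoG, had 1, 0 and 1 in the ASC MyoD libraries, and Pax7 had 1 peak in 1 of them. Pecam1, a marker of endothelial cells, had 2, 1 and 2 peaks in the ASC MyoD libraries. Cd34, Myf5 (a myogenic factor of MuSCs) and Ptprc (a marker of blood cells) had no listed peak in any library. A peak does not show that its gene is expressed, and no cell type was read from these positions.

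All 10 peaks of myosin heavy chain genes were in ASC MyoD libraries, which held 4, 3 and 3 of them. Each of the other 9 libraries, with either antibody, listed 0. The embryonic gene Myh3 was the only member with a peak in all 3 ASC MyoD libraries. The perinatal gene Myh8 had a peak in replicates 1 and 3, the adult fast gene Myh1 in replicates 1 and 2, the slow gene Myh7b in replicates 2 and 3, and the slow gene Myh7 in replicate 1. Myh2, Myh4, Myh13, Myh9 and Myh10 had no listed peak in any of the 12 libraries. By class, peaks were thus listed for 1 of 1 embryonic, 1 of 1 perinatal, 1 of 3 adult fast, 0 of 1 extraocular, 2 of 2 slow and 0 of 2 nonmuscle genes. The slow count includes Myh7, whose peak was in 1 library only. Myh14, a nonmuscle heavy chain gene outside the 10, had 1 peak, in ASC MyoD replicate 3. In all, 3223 genes, coding or not, had a MyoD peak in at least 1 library, and RefSeq lists 21900 protein-coding genes. With 1 to 3 genes in a class, the classes were not tested against each other or against all genes.

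**Figure D1:**
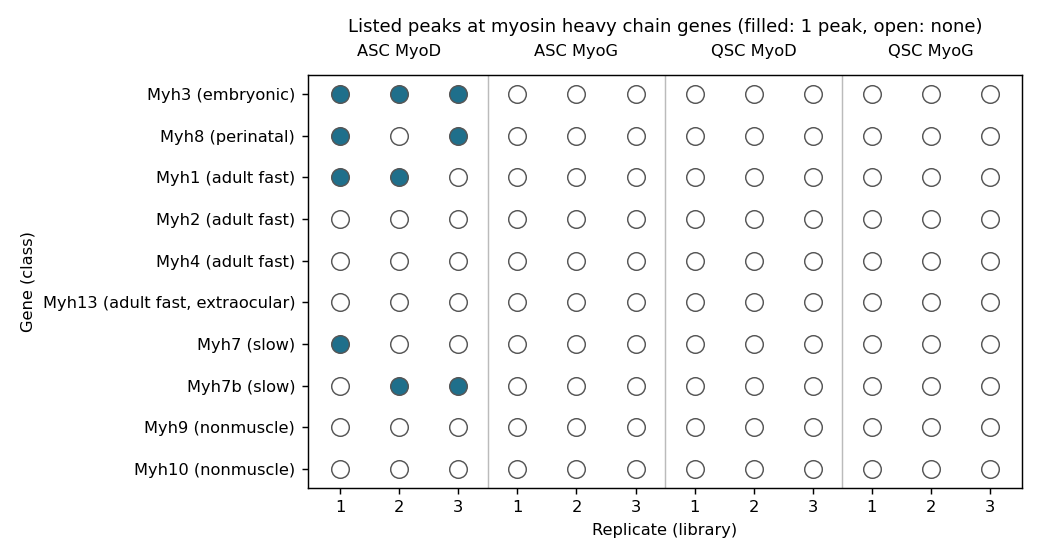
Rows are the 10 myosin heavy chain genes with their class, columns are the 12 libraries by group and replicate, and a filled circle stands for 1 listed peak and an open circle for none. The filled circles are all among the ASC MyoD libraries, and Myh3 is the only row filled in all 3 of them.

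The lists differ in length, and the zeros have to be read with that. Members took 0.151%, 0.133% and 0.131% of the peaks of the ASC MyoD libraries. At the pooled ASC MyoD share, a list as long as those of QSC libraries would hold 0.166 to 0.241 member peaks, and a list as long as those of ASC MyoG libraries 0.839 to 1.27. A count of 0 in a single QSC library therefore carries little information on these genes.

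Peaks of an antibody that overlapped by at least 1 bp across libraries were joined into regions, and a region was called ASC-specific when it held a peak in at least 2 of 3 ASC libraries and in none of the 3 QSC libraries. For MyoD, 4 of the 10 members had an ASC-specific region (Myh3, Myh8, Myh1 and Myh7b, with 1 region each). When ASC MyoD replicate 1, 2 or 3 was left out, 2 members were called each time, Myh3 and 1 other, because the other 3 members had a peak in exactly 2 libraries. Over all RefSeq protein-coding genes, the share with such a region was 5.92%. The 10 members were chosen with earlier results of these data known, and the 4 other heavy chain genes had 0 called. The count of 4 of 10 was therefore not tested against that share. Over genes with any MyoD peak the share was 50.1%, and there the matching member count is 4 of 5. Nothing is read from that count, since those 5 members entered only through their ASC peaks. For MyoG, 0 of 10 members had an ASC-specific region. The corresponding MyoG shares were 0.187% of protein-coding genes and 5.97% of genes with a MyoG peak, so a count of 0 among 10 genes does not stand apart from the background. No member had a QSC peak with either antibody, and 2.19% of protein-coding genes did.

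Peaks per library were compared by exact two-sided permutation of the 6 libraries of each comparison. With 20 possible relabelings the smallest p-value is 0.1, and a threshold of 0.05 was out of reach for any gene. Myh3 had 1 peak in each ASC MyoD library and 0 in each QSC MyoD library, and the groups did not overlap. The exact permutation p-value for Myh3 was 0.1 (0.312 after Benjamini-Hochberg adjustment over 3223 genes), and 31.7% of those genes likewise had every ASC library above every QSC library. Myh8, Myh1 and Myh7b each had a mean of 0.667 ± 0.577 peaks per ASC MyoD library (SD, n = 3) against 0, with 1 ASC library at 0 like the QSC libraries. The exact permutation p-value was 0.4 for each of these genes (adjusted 0.743). Myh7, with a peak in a single library (mean 0.333 ± 0.577), had an exact permutation p-value of 1.

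Between the antibodies within ASCs, all listed member peaks were in MyoD libraries. Myh3 had 1 peak in each MyoD library and 0 in each MyoG library (exact permutation p = 0.1, adjusted 0.384 over 3917 genes), and 24.4% of the genes tested had every MyoD library above every MyoG library. Myh8, Myh1 and Myh7b had overlapping groups (exact permutation p = 0.4, adjusted 0.852), as did Myh7 (exact permutation p = 1). This comparison and that between ASCs and QSCs share the ASC MyoD libraries. For MyoG, ASC libraries were all above QSC libraries in 4.8% of genes with a MyoG peak, and no member had a MyoG peak to test.

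Coordinates are those of the peak lists, on mm10, the build named in the submitters' processing notes, and gene positions are from RefSeq on GRCm38.p6, the same primary assembly. The striated cluster spanned chr11:67078273-67371587, or 293 kb on the plus strand, in the order Myh3, Myh2, Myh1, Myh4, Myh8, Myh13. Myh3 was separated from Myh2 by 68.7 kb, whereas the other neighbours were 2.58 to 18.5 kb apart. The stretch held 4 ASC-specific MyoD regions, 3 of them annotated to Myh3, Myh1 and Myh8. The other was annotated to 2310065F04Rik, a noncoding RNA gene also named linc-Myh, and lay in the long gap between Myh3 and Myh2. Of 8981 windows of the same length tiled over the genome, 26 (0.289%) held at least 4 ASC-specific MyoD regions, the most in a window was 7, and 83.7% held none. The windows differ in gene content and were not matched to the cluster. The cluster was chosen with earlier results of these data known and was cut at gene ends, whereas the windows were fixed tiles. The share of windows is therefore a description and not a test. Of the cluster regions, only that of Myh3 had a peak in all 3 libraries, and that of Myh1 scored close to the lowest listed score.

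The region of Myh3, the heavy chain of embryonic and newly regenerating fibers, lay at chr11:67105382-67106305. It was annotated as distal intergenic and was 3.09 kb beyond the 3′ end of the gene and 27.6 kb from its start. Its scores were 151 in replicate 1, 78.7 in replicate 2 and 52.5 in replicate 3 (mean 94.2 ± 51.1, SD, n = 3 libraries). The same place thus ranked 316 of 2652 peaks in replicate 1 and 2047 of 2296 in replicate 3. Its score percentiles within the 3 lists were 88.1, 57.6 and 10.8. The highest score was 2.88 times the lowest, against a median ratio of 1.57 over the 1101 ASC-specific MyoD regions present in all 3 libraries, and 97.4% of those had a smaller ratio. Replicate 1 gave the highest score in 49.0% of the 1101 regions. The centres of the 3 Myh3 peaks lay within 120 bp of each other.

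The region of Myh8, the perinatal heavy chain, lay at chr11:67313496-67314309, also distal intergenic and 4.86 kb beyond the 3′ end of its gene, in the gap before Myh13. Scores were 99.95 in replicate 1 and 100.8 in replicate 3, with no peak listed in replicate 2. These scores nearly coincided and, at percentiles 71.8 and 76.7 of their lists, gave Myh8 the highest mean percentile of any member (74.2). The regions given to both developmental genes were therefore beyond their 3′ ends and not at their starts.

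The region of Myh1, which encodes the heavy chain of type IIx fibers, lay at chr11:67199298-67200036 and was the only one annotated as a promoter within 1 kb among the ASC-specific regions of members. Its centre was 0.435 kb before the start of Myh1, in the 2.58 kb gap that follows the end of Myh2, the type IIa gene. Scores were 51.6 in replicate 1 and 54.9 in replicate 2, with no peak listed in replicate 3. These were close to the lowest score of 50 that the lists hold, at percentiles 4.52 and 16.6, and only 1.37% of the 1976 ASC-specific MyoD regions had a lower mean score. The centres of the peaks were 6.5 bp apart, the closest of any member.

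**Figure D2:**
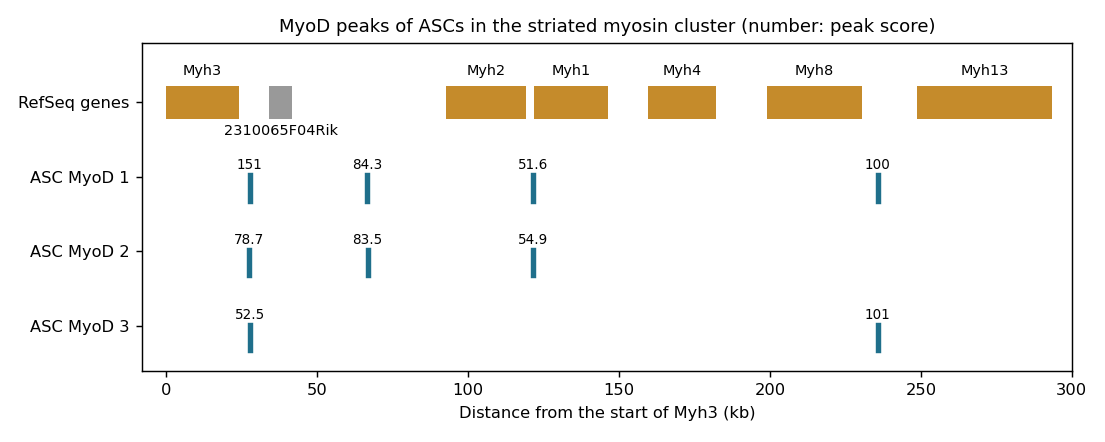
The upper row shows the RefSeq genes of the striated myosin cluster (orange, heavy chain genes; grey, 2310065F04Rik) against distance from the start of Myh3 in kb, and the lower rows show each ASC MyoD library's peaks as bars with their scores. Peaks of Myh3 and Myh8 stand beyond the 3′ ends of their genes, the peak of Myh1 stands at its start, and no peak stands within a gene.

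The region annotated to 2310065F04Rik lay at chr11:67144288-67145328, between Myh3 and Myh2, with scores of 84.3 and 83.5 in replicates 1 and 2 and no peak in replicate 3. It was 24.2 kb before the start of that gene, which is on the minus strand, and it was not counted as a member region. Its nearest RefSeq gene, by start and by body, was Gm31285, at 0.864 kb. No cluster region fell within the body of a heavy chain gene.

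Myh7b, a slow-type heavy chain gene of muscle and heart, had its region at chr2:155606128-155606970, distal intergenic and 4.27 kb before the gene start. Scores were 70.3 in replicate 2 and 54.8 in replicate 3, with no peak in replicate 1, and 14.8% of all ASC-specific MyoD regions had a lower mean score. Myh7, the heavy chain of slow fibers and of the heart ventricle, had a single peak at chr14:54997155-54997813, annotated as a promoter at 2 to 3 kb, with a score of 77.7 in replicate 1 (percentile 53.2). That peak was 2.53 kb before the start of Myh7, which is on the minus strand, and inside the noncoding gene Gm31251 of RefSeq. The peaks of the slow genes were thus on the upstream side, in at most 2 of 3 libraries.

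Both slow genes are hosts of a microRNA with nearly the same seed, the bases that pair with target mRNAs. The mature sequences are from RefSeq, with seed bases 2 to 8 in capitals, and they are shown because a peak upstream of either gene also lies upstream of its microRNA, at chr2:155622893-155622913 (plus strand) for miR-499-5p and chr14:54975710-54975731 (minus strand) for miR-208b-3p.
mmu-miR-499-5p (Myh7b): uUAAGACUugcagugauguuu
mmu-miR-208b-3p (Myh7): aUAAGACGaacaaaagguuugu
The seeds differ in their last base only, and neither microRNA was measured here.

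**Figure D3:**
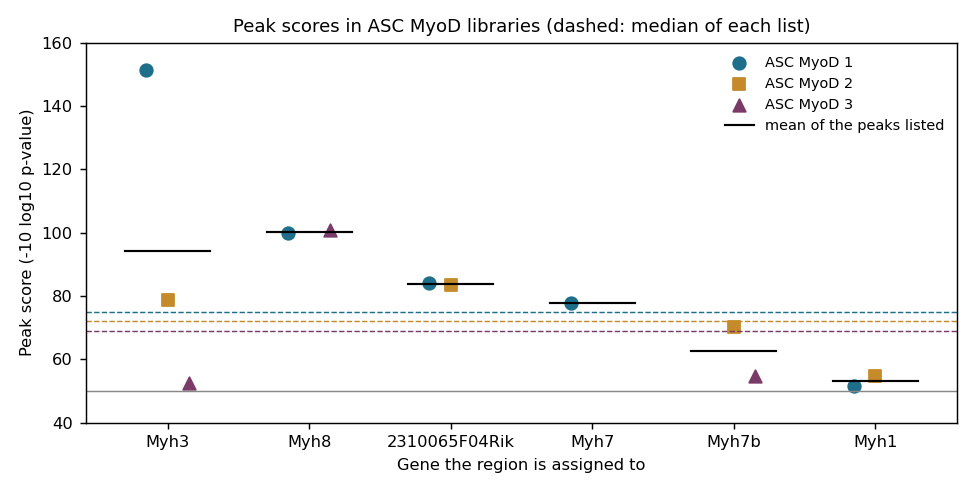
Points give the score (minus 10 log10 of the p-value) of each listed peak of a myosin heavy chain gene and of 2310065F04Rik in each ASC MyoD replicate, black bars give the mean of the listed peaks, dashed lines the median score of each list and the grey line the lowest listed score. Myh3 spreads from 52.5 to 151 over its 3 libraries, the Myh8 peaks nearly coincide near 100, and the Myh1 peaks sit near the lowest listed score of 50.

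Set beside all 1976 ASC-specific MyoD regions, the 4 member regions had a median mean score of 78.4, and all such regions had a median of 82.2 (quartiles 67.6 and 108). One of the 4 member regions, that of Myh3, had a peak in all 3 libraries, as had 55.7% of all such regions. Regions with a peak in 2 libraries had a median mean score of 70.7 over all genes, below the 98.3 of regions in all 3, and Myh8 stood above and Myh1 and Myh7b below the first of these. For regions with a peak in a single ASC library and none in QSCs the median was 58.4, and the Myh7 peak, at 77.7, was above it. Of the 4 member regions, 3 were distal intergenic and 1 was a promoter region, and 0 were in an intron or exon. Over all ASC-specific MyoD regions 35.5% were distal intergenic, 22.8% promoter and 39.2% in an intron or exon. With 4 regions these shares were not tested.

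**Figure D4:**
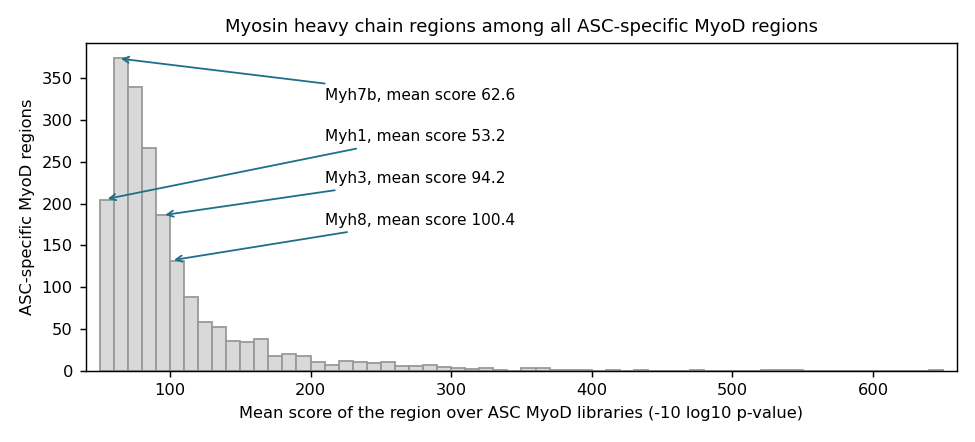
Bars count the 1976 ASC-specific MyoD regions by mean score over their ASC MyoD libraries in steps of 10, and arrows mark the bars that hold the regions of Myh1, Myh7b, Myh3 and Myh8. Myh1 is in the lowest bar, and Myh3 and Myh8 are above the median of 82.2.

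The annotated gene of a distal region depends on the rule that assigns it. When the nearest RefSeq gene start was used, an alternative chosen after seeing the data, the Myh3 region passed to 2310065F04Rik (14.2 kb) and the Myh8 region to Myh13 (13.2 kb), whereas the Myh1 and Myh7b regions kept their genes. The gene starts used cover some chromosomes incompletely, so a nearer start could be missing. When the nearest gene body was used, Myh3, Myh8, Myh1 and Myh7b each kept their region. MACS numbers its peaks along each chromosome, and between the peaks flanking the cluster the numbers ran without a break in the 3 ASC MyoD lists. Of the other 9 lists, 7 had a peak on either side of the cluster, and 1 number was skipped in 1 ASC MyoG, 1 QSC MyoD and 1 QSC MyoG list, each time over a stretch far longer than the cluster.

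For the promoters, 250 bases before each RefSeq gene start were read on the strand of the gene (RefSeq, GRCm38.p6) and searched for CANNTG, a pattern that is its own reverse complement, so that both strands were covered. All 10 members had a promoter in this table. It covers some chromosomes incompletely, so shares of windows are over the promoters it holds and not over all genes. Of 32851 such windows, 66.2% held at least 1 CANNTG, 13.0% held CAGCTG and 17.2% held CACCTG or CAGGTG, the forms that MyoD is best known to bind. Myh1 and Myh2 held no CANNTG, as did 33.8% of windows. The other 8 members held at least 1, among them CAGCTG at position -67 of Myh4 and -149 of Myh10, CACCTG at -247 of Myh10 and CAGGTG at -62 of a second start of Myh7, counting back from -1 at the base before the start. A match is only a match of letters, and the rest of each peak was not searched because no genome sequence was used here.

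Only the window of Myh1 was overlapped by a peak. Its first 185 bases lay inside the replicate 2 peak, which ended 66 bases before the start, and its first 100 lay inside the replicate 1 peak, which ended 151 bases before the start. The Myh1 window is shown because it is the one promoter here that the data bear on, with the bases inside the replicate 2 peak in capitals (chr11:67199852-67200101, plus strand). The window of Myh4, the type IIb gene next to it, is shown for contrast, with its E-boxes in capitals (chr11:67237562-67237811, plus strand), and it held CAGCTG and no listed peak in any library.
Myh1: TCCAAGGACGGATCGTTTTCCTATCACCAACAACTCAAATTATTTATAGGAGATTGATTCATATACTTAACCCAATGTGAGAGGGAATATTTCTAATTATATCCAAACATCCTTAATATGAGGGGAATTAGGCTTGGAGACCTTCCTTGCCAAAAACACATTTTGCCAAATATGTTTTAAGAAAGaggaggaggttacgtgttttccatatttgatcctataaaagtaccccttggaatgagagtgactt
Myh4: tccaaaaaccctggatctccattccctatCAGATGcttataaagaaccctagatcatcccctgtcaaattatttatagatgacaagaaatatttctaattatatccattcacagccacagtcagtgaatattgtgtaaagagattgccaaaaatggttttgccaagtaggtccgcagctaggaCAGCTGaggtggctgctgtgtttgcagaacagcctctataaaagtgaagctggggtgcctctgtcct
The absence of CANNTG from the Myh1 window says only that these letters are not within it. The windows of these neighbours also shared sequence. Myh1 and Myh4 had a run of 20 bases in common, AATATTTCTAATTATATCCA, which was found in 3 of the 32851 windows and began 165 bases before the start of Myh1 and 163 before that of Myh4. Myh1 and Myh2 shared the same run extended to 21 bases, and Myh1 and Myh8 shared 22 bases, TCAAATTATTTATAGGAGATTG, each found in 2 windows. The run shared with Myh8 lay within the bases covered by both Myh1 peaks. The longest runs shared by Myh1 with the other members were 7 to 10 bases.

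Genes that work with myosin heavy chains were read from a list of 36. For MyoD, 8 of 36 (22.2%) had an ASC-specific region, with 9 regions, and none had one for MyoG. The 36 genes held 32 peaks in ASC MyoD libraries, 1 in ASC MyoG (Ppp1r12a, a phosphatase targeting subunit, in replicate 1) and 0 in QSCs. The list was written with earlier results of these data known and is given as counts only, beside 4 of 10 for the heavy chain genes and 5.92% of protein-coding genes.

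Light chains of the sarcomere, which wrap the neck of the heavy chain head, had an ASC-specific MyoD region in 3 of 7 genes. Myl1, an essential light chain of fast fibers, had a region in intron 1 in all 3 libraries (mean score 98.0 ± 24.1, SD, n = 3) and one annotated as distal intergenic in 2, 1.61 kb beyond the 3′ end. Mylpf, the regulatory light chain of fast fibers, had a promoter region in all 3 (82.0 ± 8.61). Myl10, a further regulatory light chain, had a region in all 3 that scored low (55.3 ± 0.910) and that was annotated as distal intergenic, although it lay 0.582 kb before the RefSeq gene body. The light chains of nonmuscle and smooth muscle myosin had 0 of 5 and no listed peak in any library. The nonmuscle heavy chains Myh9 and Myh10 had no listed peak either, whereas the nonmuscle heavy chain Myh14 had 1. An ASC-specific MyoD region was found in 5.92% of protein-coding genes, so 0 among so few genes does not stand apart from that share.

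Kinases and phosphatase subunits acting on the regulatory light chain had 2 of 9. Mylk4, a member of the myosin light chain kinase family, had an intron 1 region in all 3 libraries (74.5 ± 4.69), and Ppp1r12b, a targeting subunit of myosin phosphatase, had one in its own intron 1 (91.8 ± 6.68). Proteins that bind the thick filament or the M-band had 2 of 7. Mybpc1, the slow form of myosin-binding protein C, had a promoter region in all 3 libraries (71.3 ± 16.1), and Mybph, which encodes a related protein, had one at 1 to 3 kb from the start annotated to it (88.0 ± 13.9). Chaperones and assembly factors had 1 of 4, Smyd1, which is needed for thick filament assembly and had a promoter region in 2 libraries (67.5 ± 2.57). The 4 other heavy chain genes had 0, with a single peak of 59.9 in intron 8 of the nonmuscle gene Myh14 in ASC MyoD replicate 3. The 7 genes with a peak in all 3 ASC MyoD libraries were Myl1, Mylpf, Myl10, Mylk4, Ppp1r12b, Mybpc1 and Mybph, a property that Myh3 was the only heavy chain member to share.

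**Figure D5:**
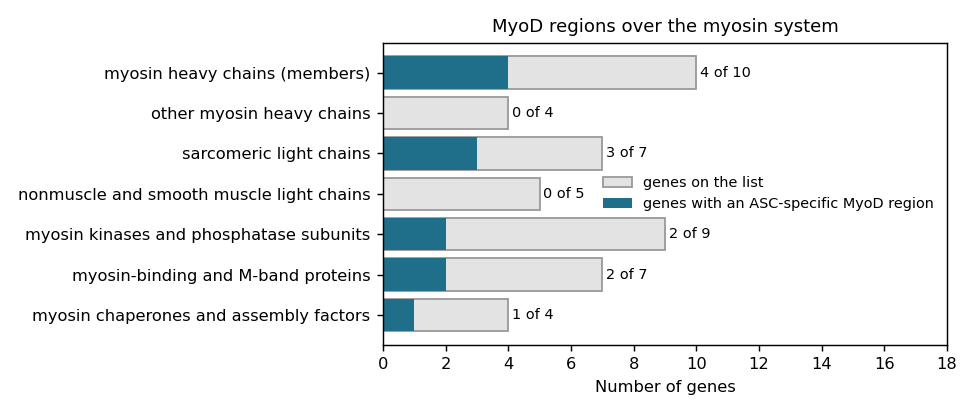
Bars give, for the heavy chain members and each class of partner genes, the number of genes on the list (grey) and the number with an ASC-specific MyoD region (blue). The filled parts are 4 of 10 for heavy chain members, 0 of 4 for other heavy chains and 3 of 7 for sarcomeric light chains. They are 0 of 5 for nonmuscle and smooth muscle light chains and 2 of 9 for kinases and phosphatase subunits. For myosin-binding and M-band proteins they are 2 of 7, and for chaperones and assembly factors 1 of 4. Over all protein-coding genes the share was 5.92%, and the classes were not tested.

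The pattern of each member over the 12 libraries was common among other genes. A peak in all 3 ASC MyoD libraries and nowhere else, as in Myh3, was also found for 521 other genes, counting genes with the same number of peaks in every library. The pattern of Myh8 was shared by 203, of Myh1 by 186, of Myh7b by 117 and of Myh7 by 424 other genes. For Myh8, whose region had the highest mean percentile of the members, the 3 genes of the same pattern with the nearest mean percentile (74.2 for Myh8) were Mark1 (74.3), Znrf2 (74.1) and Gm5105 (74.7).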

How the data were processed

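The 12 deposited peak lists were made by the authors with MACS, 1 list per library, and each peak carries the gene and gene part they gave it. Per the file headers the score is minus 10 times log10 of the p-value, and start and end (unit: other) are deposited positions in bp. The submitters' processing notes name mm10, BWA 0.7.5, MACS and deepTools 3.5.0; the role of the inputs and any filter are not given in the sources used here. Groups came from sample titles. The members and gene lists were chosen with earlier results of these data known. Of the 4385 annotated genes, 4099 (93.5%) matched RefSeq symbols, and 98.0% of 4233 promoter, intron or exon peaks in ASC MyoD lists lay within 3 kb of the named gene's RefSeq body.

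Peaks were joined at an overlap of at least 1 bp over the 6 libraries of an antibody. The region steps were tested on simulated lists. Peaks per library were compared by exact two-sided permutation with Benjamini-Hochberg adjustment over all genes with a peak in either group. Named were all members, and partner genes with a peak in all 3 ASC MyoD libraries. The 3 genes nearest to the top member and any gene with a peak in the cluster were also named. Smyd1, Myh14, Ppp1r12a, Gm31285 and Gm31251 fell outside this rule and were named after their values were seen. Alternatives were a score of at least 80, an overlap of 50%, a gap of 500 bp, a peak in all 3 or at least 1 library, distal peaks left out, each replicate left out, and a replicate block. Depth is unknown, so no interval from reads is given. Python 3.11.15, numpy 2.4.6, pandas 2.3.3, scipy 1.17.1 and matplotlib 3.10.9 were used.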

Additional observations from a re-analysis of the deposited data

How the results depend on the processing

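The number of members with an ASC-specific MyoD region, and of their regions, was 4. Both counts fell to 1 with a score of at least 80 (Myh8), to 1 with a peak required in all 3 ASC libraries (Myh3) and to 1 with distal intergenic peaks left out (Myh1). Leaving out 1 library gave 2 to 4: without ASC MyoD replicate 1 the 2 were Myh3 and Myh7b, without replicate 2 Myh3 and Myh8, and without replicate 3 Myh1 and Myh3, whereas without any 1 QSC library the count stayed at 4. No member was called under all of these settings. An overlap of 50% or a gap of 500 bp gave 4, a peak in at least 1 library 5, and assignment to the nearest RefSeq start or body, chosen after seeing the data, 3 and 4. For MyoG the counts were 0 under every alternative run. No member had a MyoG or a QSC peak, so neither these counts nor those without a QSC library could have changed. The share of genes with a MyoD peak that were called was 50.1%, and it ranged from 40.5% to 51.6% with a library left out and was 54.7%, 29.9% and 91.6% with the score of 80, all 3 libraries and at least 1 library. Of 50 recomputed differences in peaks per library, 43 kept their direction and 7 went to 0. The groups set against ASC MyoD held 0 member peaks, so no difference could reverse, and the tally is no measure of stability.

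With replicate numbers as a block, the mean differences were the same, with exact sign-flip p-values of 0.25 for Myh3, the smallest that 3 pairs allow, 0.5 for Myh8, Myh1 and Myh7b, and 1 for Myh7. Correlations of the deviations of same-numbered libraries were between -0.0214 and 0.0134. They cannot show whether such libraries share animals, which the sources used here do not give, so p-values are given both without and with the block. E-box counts in windows around the region centres were not run, as no genome sequence was used here. Unknown depth limits every statement on a missing peak.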
